A study of Mus musculus with 8 samples.

Results

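The peaks of histone H3 lysine 27 acetylation (H3K27ac) at 9 Sox genes, Sox2, Sox4, Sox5, Sox6, Sox8, Sox9, Sox10, Sox11 and Sox13, were examined in Oli-neu cells. Every peak over the gene body or within 50 kb of it was taken from each of the 2 deposited peak lists. These 9 genes, out of 21951 protein-coding genes of the annotation, drew 45 of the 28924 peaks of the proliferating list and 51 of the 27965 peaks of the differentiating list. Oli-neu is a mouse cell line, labelled as oligodendrocyte progenitor cells of embryonic origin from the strain C57BL/6. H3K27ac, a mark of active promoters and enhancers, was measured by chromatin immunoprecipitation and sequencing (ChIP-seq). Proliferating cells were kept with thyroid hormones, 10 ng/ml bFGF and 1 ng/ml Pdgf-BB. Differentiating cells were given a medium free of growth factors with 1 µM of the erb inhibitor PD174265, for 1 day according to the labels, whereas the study's methods state a longer time. Each state was represented by 1 library. The spread between cultures is therefore unknown, and a difference between the libraries cannot be told apart from a difference between the states.

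Sox proteins bind the minor groove of DNA through an HMG box and bend it, and they fall into subgroups by the similarity of that box. In the oligodendrocyte lineage, the SoxE proteins Sox8, Sox9 and Sox10 act in specification, survival and myelin gene expression. The SoxD proteins Sox5 and Sox6 lack a transactivation domain and are known to counter Sox10 at its target sites in progenitors. The SoxB1 protein Sox2 and the SoxC proteins Sox4 and Sox11 are best known from neural stem cells and immature neural cells. H3K27ac peaks report acetylated chromatin and not the level of a transcript or protein.

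The deposited value of each peak is read as its fold enrichment and its −log10 p and −log10 q, and each was ranked only inside its own list. The percentile of a peak is the share of its list with a lower −log10 q, q being the p-value corrected for multiple testing by the peak caller. The weakest peaks had a q of 0.0995 (proliferating) and 0.0983 (differentiating), so the lists reach past the cutoff of 0.05 given in the methods. At q of at most 0.05 all 45 proliferating Sox peaks were kept and 46 of the 51 differentiating ones, with Sox8 going from 8 to 6, Sox13 from 7 to 6, Sox6 from 10 to 9 and Sox10 from 9 to 8. Without read counts in the lists, no depth can be given for a peak. Promoter peaks were found for 8 of 13 markers of the oligodendrocyte lineage in the proliferating list, Olig1 and Olig2 among them, against 31.3% of all protein-coding genes. In the differentiating list 7 of 13 had a promoter peak, against 35.3% of genes. Both counts include Sox10, which is itself 1 of the 9 genes examined. Mbp, Mag, Mog, Cspg4 and Nkx2-2 had a promoter peak in neither list. None of 4 microglial and 2 endothelial markers had a promoter peak in either list. A promoter peak in at least 1 list was found for 2 of 4 astrocyte and 1 of 4 neuronal markers, against 42.1% of genes.

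To show what acetylated chromatin shared by both states looks like at these genes, the strongest shared region outside exons is given for each of 6 members. Each sequence is the central 300 bases of the overlap of both states' peaks, on the plus strand of GRCm38/mm10, with matches to the words AACAAT and ACAAAG (Sox HMG box), CAGCTG (an E-box of bHLH factors) and TGANTCA (AP-1) on either strand in capitals.
Sox10, chr15:79193268-79193567: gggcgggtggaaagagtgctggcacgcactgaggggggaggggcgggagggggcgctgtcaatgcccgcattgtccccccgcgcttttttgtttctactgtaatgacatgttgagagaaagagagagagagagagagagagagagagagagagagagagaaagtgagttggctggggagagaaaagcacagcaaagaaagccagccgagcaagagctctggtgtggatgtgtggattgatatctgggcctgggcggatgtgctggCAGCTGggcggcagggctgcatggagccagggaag
Sox8, chr17:25609298-25609597: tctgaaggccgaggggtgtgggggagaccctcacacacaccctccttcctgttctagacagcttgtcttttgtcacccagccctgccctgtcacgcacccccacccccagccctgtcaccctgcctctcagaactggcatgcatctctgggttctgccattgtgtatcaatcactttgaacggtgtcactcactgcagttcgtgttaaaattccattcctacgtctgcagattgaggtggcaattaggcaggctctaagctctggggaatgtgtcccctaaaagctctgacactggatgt
Sox6, chr7:115721944-115722243: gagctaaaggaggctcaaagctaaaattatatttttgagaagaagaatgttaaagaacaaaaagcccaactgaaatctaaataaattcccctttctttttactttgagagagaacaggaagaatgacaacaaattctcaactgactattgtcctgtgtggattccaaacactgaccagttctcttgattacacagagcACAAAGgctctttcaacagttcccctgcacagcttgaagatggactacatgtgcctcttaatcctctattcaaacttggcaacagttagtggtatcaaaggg
Sox4, chr13:28958624-28958923: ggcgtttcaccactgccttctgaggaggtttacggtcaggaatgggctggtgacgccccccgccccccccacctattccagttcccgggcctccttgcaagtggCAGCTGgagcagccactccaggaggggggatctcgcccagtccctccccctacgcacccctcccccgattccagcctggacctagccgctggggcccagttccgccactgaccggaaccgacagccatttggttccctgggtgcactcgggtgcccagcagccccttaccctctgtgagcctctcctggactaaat
Sox5, chr6:144444609-144444908: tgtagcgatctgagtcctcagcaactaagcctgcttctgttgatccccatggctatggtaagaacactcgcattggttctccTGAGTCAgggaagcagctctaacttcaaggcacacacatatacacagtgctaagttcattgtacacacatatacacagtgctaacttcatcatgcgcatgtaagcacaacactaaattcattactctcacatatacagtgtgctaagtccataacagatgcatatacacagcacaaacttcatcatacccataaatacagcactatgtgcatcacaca
Sox11, chr12:27342981-27343280: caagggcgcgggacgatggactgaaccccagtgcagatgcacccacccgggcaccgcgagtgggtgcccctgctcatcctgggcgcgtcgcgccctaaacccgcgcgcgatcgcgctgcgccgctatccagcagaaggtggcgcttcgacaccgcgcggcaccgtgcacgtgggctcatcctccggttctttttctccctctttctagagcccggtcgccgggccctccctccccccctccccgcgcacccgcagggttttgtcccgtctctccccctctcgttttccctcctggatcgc
The Sox10 stretch, centred at −28.2 kb from the 5′ TSS inside the non-coding gene Gm10863, held 1 CAGCTG and no Sox word. The Sox8 stretch, in an intron of Lmf1 at −38.8 kb, held none of the 4 words. The Sox6 stretch lay in an intron 317 kb downstream of the 5′ TSS, contained no CpG and held the 1 ACAAAG among the 6 stretches. The Sox4 stretch was intergenic at −5.06 kb and held 1 CAGCTG, and the Sox5 stretch, in an intron 337 kb downstream, held 1 TGANTCA. The Sox11 stretch, 0.556 kb upstream of the TSS, held none of the words, was 69.3% G and C and contained 35 CpGs, at an observed-over-expected ratio of 1.02. A match is a description of the letters and does not show that a factor was bound.

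Over all peaks of the windows, the Sox words were not clearly more or less frequent than in the rest of the lists. ACAAAG was in the central 300 bases of 12 of 45 proliferating peaks (26.7%, 95% exact Clopper-Pearson interval 14.6 to 41.9%) against 23.1% of the whole list, and of 13 of 51 differentiating peaks (25.5%, 14.3 to 39.6%) against 23.1%. AACAAT was in 3 of 45 (6.67%, 1.40 to 18.3%) against 14.3%, and in 8 of 51 (15.7%, 7.02 to 28.6%) against 13.7%. CAGCTG was in 9 peaks of each state (20.0% against 15.4%, and 17.6% against 15.9%), and TGANTCA in 5 and 3 (11.1% against 8.10%, and 5.88% against 8.02%). Each of the 8 whole-list shares lay inside the interval of the Sox peaks. These intervals cover counting error only, and neighbouring peaks share a locus. An observed-over-expected CpG ratio of at least 0.6, as in CpG islands, was found for 6 of all 45 proliferating Sox peaks (13.3%, 5.05 to 26.8%) against 16.4% of the list, and for 8 of 51 differentiating ones (15.7%, 7.02 to 28.6%) against 20.0%, and both intervals held the share of the list. Among peaks with a counterpart it was found for 5 of 24 proliferating Sox peaks (20.8%, 7.13 to 42.2%) against 44.5% of all such peaks, and for 4 of 24 differentiating ones (16.7%, 4.74 to 37.4%) against 45.6%. Of these 24 shared peaks, 8 came from Sox6 and 7 from Sox10.

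A peak in the window was found for 8 of the 9 members in the proliferating list, where 75.2% of protein-coding genes had at least 1, and for 8 of 9 in the differentiating list, where 74.2% did. In both states at once 7 of 9 members had a peak, against 67.1% of genes. Having a peak in the window therefore did not set the Sox genes apart. A promoter peak, taken as a peak from 3000 bp upstream to 100 bp downstream of any transcript's TSS, was found for 6 of 9 members in the proliferating list (31.3% of genes) and for 6 of 9 in the differentiating list (35.3% of genes). Sox2, Sox6, Sox10 and Sox11 had it in both lists (4 of 9, against 24.5% of genes). Sox5 and Sox9 had it in the proliferating list alone and Sox8 and Sox13 in the differentiating list alone, so that 8 of 9 had it in either list (42.1% of genes). Sox4 had it in neither. Of the 40 distinct TSSs of these genes, 11 lay under a peak in each list. The 4 TSSs of Sox10 lay under the same peak, so these TSSs are not independent. The share over all annotated TSSs is not given here.

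**Figure D1:**
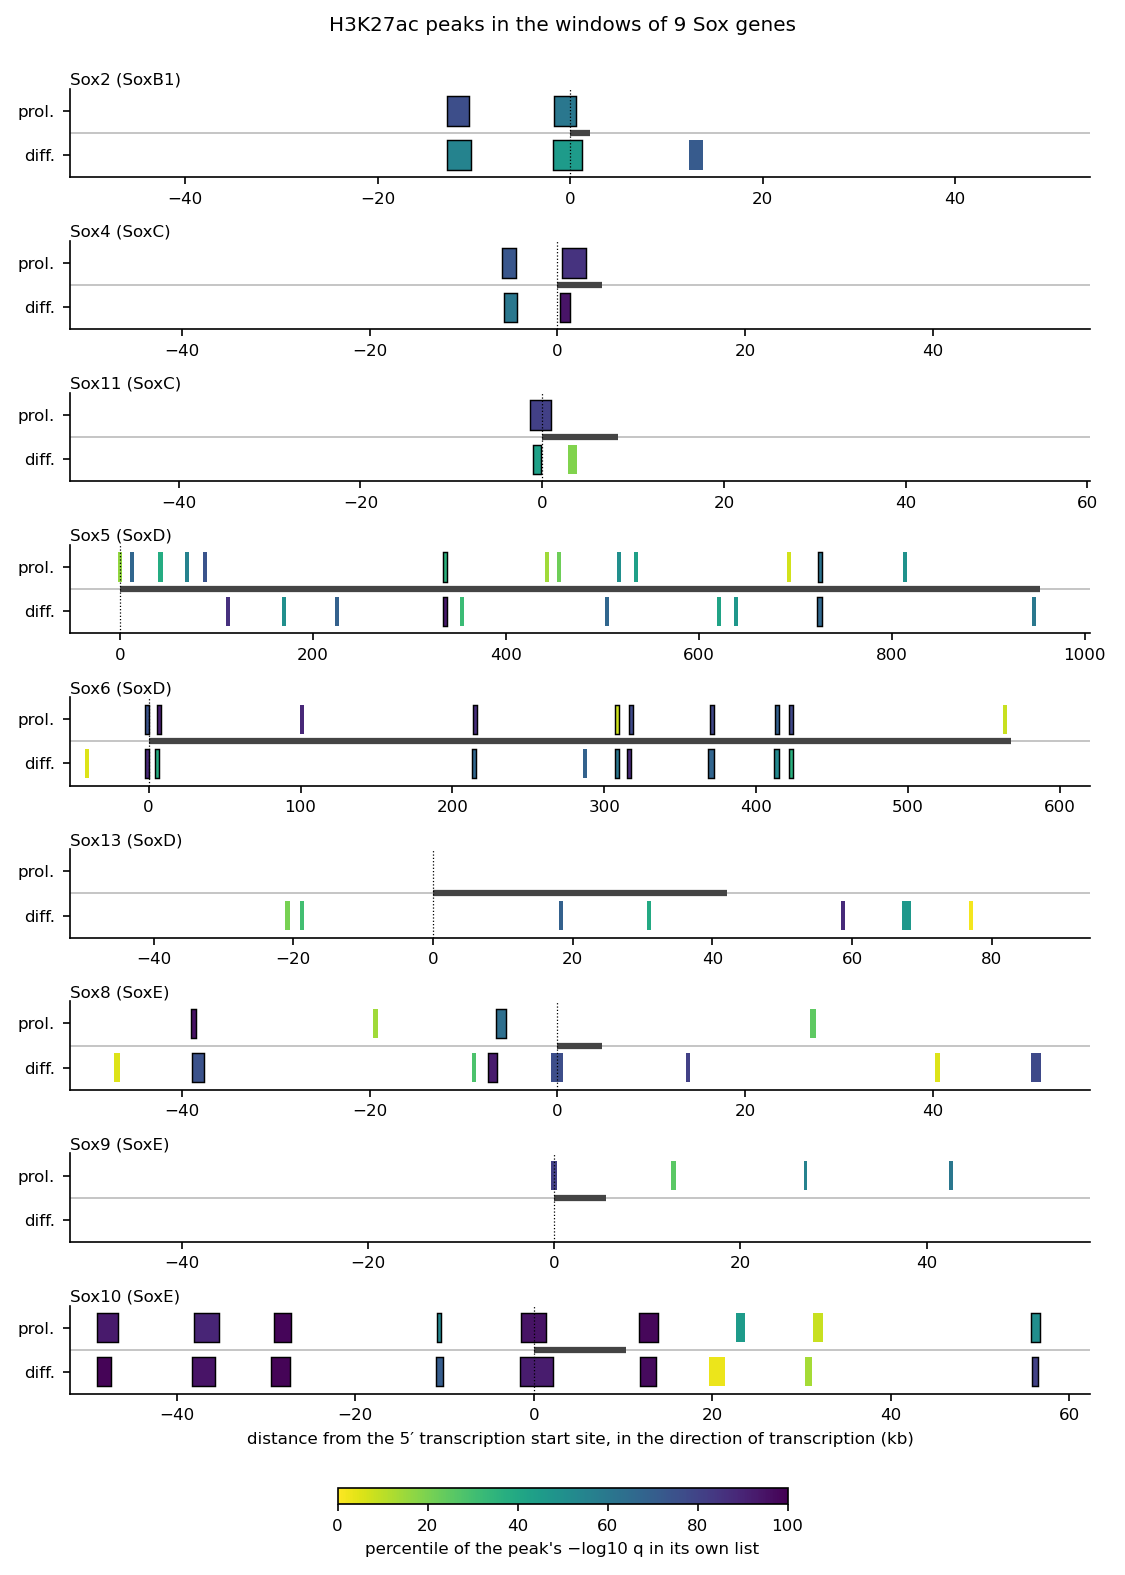
Position of every H3K27ac peak in the windows of the 9 Sox genes, as distance in kb from the 5′ TSS in the direction of transcription (dotted line), with the gene body as a dark bar, proliferating peaks above it and differentiating peaks below it. Colour is the percentile of the peak's −log10 q in its own list, a black outline marks a peak with a counterpart in the other state, and very narrow peaks are drawn at a minimum width; Sox10 carries 7 outlined peaks in each state, Sox13 has no proliferating peak and Sox9 no differentiating peak.

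Of the 45 proliferating peaks, 24 shared at least 1 base with a differentiating peak (53.3%, 95% exact interval 37.9 to 68.3%), where 29.2% of the whole list did. Of the 51 differentiating peaks, 24 had a counterpart (47.1%, 32.9 to 61.5%), against 30.1%. These intervals treat peaks of the same locus as independent, and the higher share rested largely on Sox6 and Sox10. Without Sox6 it was 45.7% (28.8 to 63.4%) among proliferating and 39.0% (24.2 to 55.5%) among differentiating peaks, and both intervals then held the share of the whole list. Without Sox10 it was 47.2% (30.4 to 64.5%) and 40.5% (25.6 to 56.7%), of which the latter held it. The highest shares left after removal of 1 member were 68.75% without Sox5 and 54.5% without Sox13. By subgroup, 2 of 2 proliferating and 2 of 3 differentiating peaks of SoxB1 had a counterpart, 3 of 3 and 3 of 4 of SoxC, 10 of 23 and 10 of 27 of SoxD, and 9 of 17 in each list of SoxE.

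Pooled over the 9 genes, Sox peaks had a median width of 1033 bp against 652 bp for all proliferating peaks. In the differentiating list it was 960 bp against 755 bp for all peaks. Not every gene had wide peaks. The median of a single gene was below that of the list for Sox9 (408 bp) and Sox8 (643.5 bp) in the proliferating list. In the differentiating list it was below for Sox5 (523.5 bp) and Sox13 (566 bp). The other genes with peaks in a list had a median above that of the list. At least 2000 bp were reached by 11 of 45 proliferating peaks (24.4%, 12.9 to 39.5%) against 2.74% of the list, and by 8 of 51 differentiating peaks (15.7%, 7.02 to 28.6%) against 3.45%. In the proliferating list these wide peaks belonged to Sox10 (4), Sox6 (3), Sox2 (2), Sox4 (1) and Sox11 (1), and in the differentiating list to Sox10 (3), Sox6 (3) and Sox2 (2). The median percentile by −log10 q was 62.5 (95% exact interval of the median 50.7 to 76.3, n = 45 peaks) and 66.6 (47.2 to 70.8, n = 51). Fold enrichment was not raised: its median was 3.26 against 3.33 for all proliferating peaks and 3.11 against 3.13 for all differentiating peaks, and over the Sox peaks it ran from 2.47 to 4.53 and from 2.23 to 4.49. Peaks with a counterpart were wider and higher in rank than those without, with a median width of 1843 against 553 bp and a median percentile of 78.4 against 43.7 in the proliferating list, and 1499 against 639 bp and 72.7 against 46.5 in the differentiating list. The same contrast held for the whole lists, where the median percentile was 76.0 against 40.8 and 77.3 against 39.3. Introns held 23 of the 45 proliferating Sox peaks and 25 of the 51 differentiating ones (51.1% and 49.0%, against 31.9% and 31.4% of the lists). Intergenic peaks numbered 4 in each list (8.89% and 7.84%, against 34.3% and 31.2%), in windows that include the long bodies of Sox5 and Sox6.

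**Figure D2:**
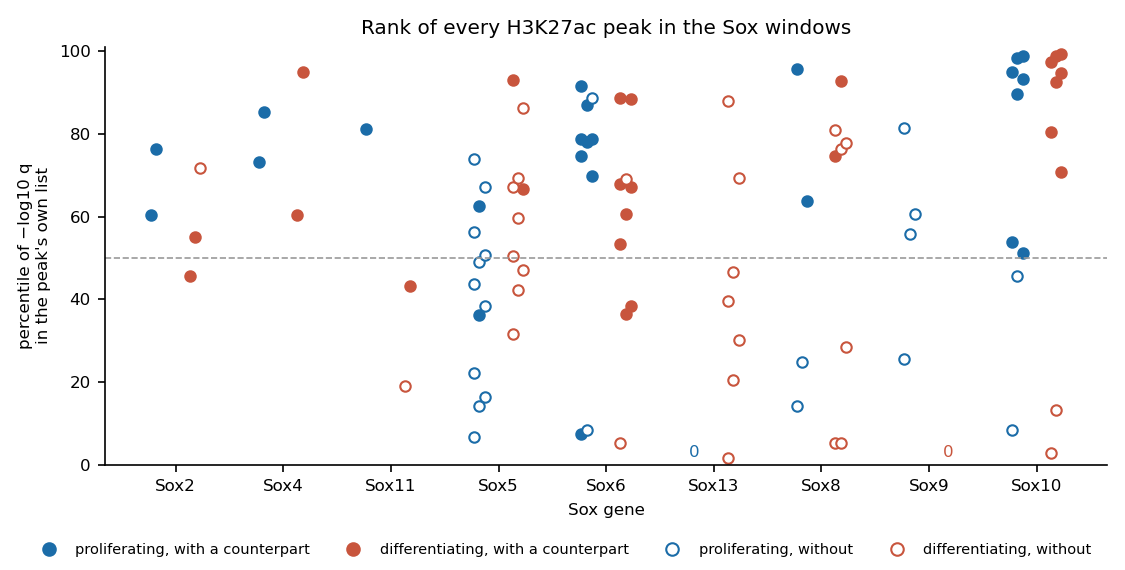
Percentile of −log10 q of each peak in its own list (vertical axis) for each Sox gene, with proliferating peaks in blue and differentiating peaks in red; filled points have a counterpart in the other state, open points have none, and a printed 0 marks a gene with no peak. The dashed line is the 50th percentile, which 7 of the 9 Sox10 peaks exceed in each state.

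Sox2, the SoxB1 factor of neural stem cells (ENSMUSG00000074637.7, chromosome 3, 34650405 to 34652461, plus strand), lies inside the non-coding gene Sox2ot. A peak covered its TSS in both lists, 2274 bp wide at the 60.5th percentile in proliferating cells and 2975 bp wide at the 45.6th percentile in differentiating cells. Both were among the widest of their lists, wider than 98.6% and 99.6% of peaks, at ranks near the middle. A second shared peak ended 10458 bp upstream of the TSS in proliferating cells (2364 bp, percentile 76.3) and 10338 bp upstream in differentiating cells (2455 bp, percentile 55.1), and lay in a promoter region of Sox2ot. A differentiating peak of 1471 bp that started 12325 bp downstream (percentile 71.7) had no counterpart. Sox2 thus kept the same pair of wide peaks in both lists, and both had a lower percentile in the differentiating list.

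Sox4, a SoxC factor (ENSMUSG00000076431.4, chromosome 13, 28948919 to 28953713, minus strand), had the same 2 shared peaks in both lists and no promoter peak by the definition used. The peak over its body started 500 bp downstream of the TSS in proliferating cells (2579 bp, −log10 q 3.19, percentile 85.2) and 294 bp downstream in differentiating cells (1065 bp, −log10 q 5.19, percentile 94.9). The upstream peak lay 4393 bp from the TSS in proliferating cells (1490 bp, percentile 73.3) and 4362 bp in differentiating cells (1367 bp, percentile 60.5). Sox11, the other SoxC member (ENSMUSG00000063632.6, chromosome 12, 27334264 to 27342574, minus strand), had a proliferating peak of 2251 bp over its TSS at the 81.2nd percentile. In the differentiating list the overlapping peak was 960 bp wide, ended 77 bp upstream of the TSS and stood at the 43.3rd percentile, and a further peak of 913 bp over the gene, 2872 bp downstream of the TSS, stood at the 19.1st percentile. At the TSS of Sox11 the peak was therefore narrower and lower in rank in the differentiating library, while the body peak of Sox4 was narrower and higher in rank.

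Sox5, a SoxD factor that partners with Sox6 (ENSMUSG00000041540.16, chromosome 6, 143828425 to 144781977, minus strand), is the longest of these genes and had 13 proliferating and 10 differentiating peaks, all of them in or across its body, of which 2 in each list were shared. Its only promoter peak was in the proliferating list: it covered the far 5′ TSSs of the transcripts Sox5-209 and Sox5-212, which the annotation does not mark as protein-coding, and was 1053 bp wide at the 16.4th percentile. The nearest differentiating peak to that TSS lay 111909 bp downstream, in a promoter region of the antisense gene Sox5os3, 306 bp wide with a −log10 q of 3.49 (percentile 86.3). No protein-coding Sox5 transcript had a promoter peak in either list. The shared intronic peak 336986 bp downstream differed in rank more than any other shared Sox peak, at the 36.2nd percentile in proliferating cells (467 bp, −log10 q 1.74) and the 93.1st in differentiating cells (515 bp, −log10 q 4.62). The other shared peak, 724564 bp downstream in the proliferating list, stood at percentiles 62.5 and 66.6 with widths of 1328 and 1644 bp, the latter the widest differentiating Sox5 peak. The strongest proliferating peak (percentile 74.0, 887 bp, 87389 bp downstream) and the widest (1378 bp, percentile 67.2) were both unshared.

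Sox6, the partner of Sox5 in the SoxD subgroup (ENSMUSG00000051910.13, chromosome 7, 115470872 to 116038796, minus strand), had 10 peaks in each list and 8 of them were shared. More shared peaks than in 99.9% of protein-coding genes fell in its window, which is 668 kb long. Per 100 kb the window held 1.5 peaks in each list, close to the median of 1.34 and 1.38 over protein-coding genes. The peak nearest to the 5′ TSS lay 448 bp upstream in proliferating cells (1580 bp, percentile 74.6) and 590 bp upstream in differentiating cells (815 bp, −log10 q 3.77, percentile 88.6, the strongest differentiating Sox6 peak), and it also lay in the promoter region of the neighbouring gene 1110004F10Rik. The strongest proliferating peak covered the TSS of the protein-coding transcripts Sox6-202 and Sox6-210, 7749 bp inside the gene (1481 bp, −log10 q 3.95, percentile 91.6). Its counterpart was 2208 bp wide, shared 527 bp with it, had its nearest base 905 bp upstream of that TSS and stood at the 38.4th percentile. A further promoter, that of the internal transcript Sox6-205 at 214086 bp, lay under a peak in both lists (2236 bp, percentile 87.1, and 1732 bp, percentile 67.1). The widest Sox6 peak in each list was the same intronic region, 2801 bp in proliferating and 3772 bp in differentiating cells, wider than 99.6% and 99.9% of peaks, at percentiles 78.8 and 67.8. Sox6 therefore shared most of its peaks between the lists, with 3 of the 8 ranked higher in the differentiating list.

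Sox13, the remaining SoxD member (ENSMUSG00000070643.11, chromosome 1, 133382303 to 133424377, minus strand), had no proliferating peak in its window and 7 differentiating peaks. The nearest proliferating peaks lay 54.1 kb beyond its 5′ end and 69.9 kb beyond its 3′ end. The peak nearest to its 5′ TSS started 18107 bp downstream (383 bp, percentile 69.3). A peak of 689 bp at the 39.6th percentile covered the TSSs of the internal protein-coding transcripts Sox13-201 and Sox13-203. The strongest peak of the window (469 bp, −log10 q 3.68, percentile 88.0) lay in the promoter region of the neighbour Etnk2 and the widest (1382 bp, percentile 46.5) inside Ren1, the renin gene, so only 2 of the 7 lay in the Sox13 body. Of all 21951 genes, Sox13 was the only 1 with at least 7 differentiating and no proliferating peaks in such a window (0.00456%), a limit set by its own count after that count was seen. The median percentile of the 7 peaks was 39.6, below the middle of the list.

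Sox8, the SoxE member expressed alongside Sox10 (ENSMUSG00000024176.10, chromosome 17, 25565892 to 25570686, minus strand), had 4 proliferating and 8 differentiating peaks, of which 2 were shared. A differentiating peak of 1328 bp, the widest of the gene, covered all its TSSs (−log10 q 2.75, percentile 76.4), and the nearest proliferating peak lay 5443 bp upstream (1147 bp, percentile 63.7), at the promoter of the neighbour Lmf1. That peak, the widest of the proliferating ones, shared only 121 bp with a differentiating peak of 939 bp, which was the strongest Sox8 peak of its list (−log10 q 4.56, percentile 92.8). The strongest proliferating peak lay 38508 bp upstream in an intron of Lmf1 (580 bp, −log10 q 5.0, percentile 95.7), and its counterpart was 1284 bp wide at the 74.7th percentile. The peaks per 100 kb of window came to 3.82 in the proliferating and 7.63 in the differentiating list, more than for 85.8% and 99.3% of protein-coding genes. Of the 8 differentiating peaks, 3 were below the 50th percentile, and 2 of them stood at the 5.24th.

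Sox9, the SoxE gene best known in astrocytes and glial specification (ENSMUSG00000000567.5, chromosome 11, 112782224 to 112787760, plus strand), showed the opposite: 4 proliferating peaks and no differentiating peak. A peak of 597 bp covered its TSS, with a −log10 q of 2.93 (percentile 81.5), and was both the strongest and the widest of the 4. The others started 12536, 26849 and 42457 bp downstream, were 553, 263 and 263 bp wide and stood at percentiles 25.5, 55.8 and 60.5; 263 bp is the narrowest width in the list, shared by 22.9% of its peaks. In the differentiating list the nearest peaks lay 75.7 kb upstream of the gene and 244 kb downstream of it. At least 4 proliferating peaks and no differentiating peak were found at 54 of 21951 genes (0.246%), again a limit read from Sox9 itself. None of the 4 peaks reached a −log10 q of 3, so no peak of Sox9 remained under that limit in either list.

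**Figure D3:**
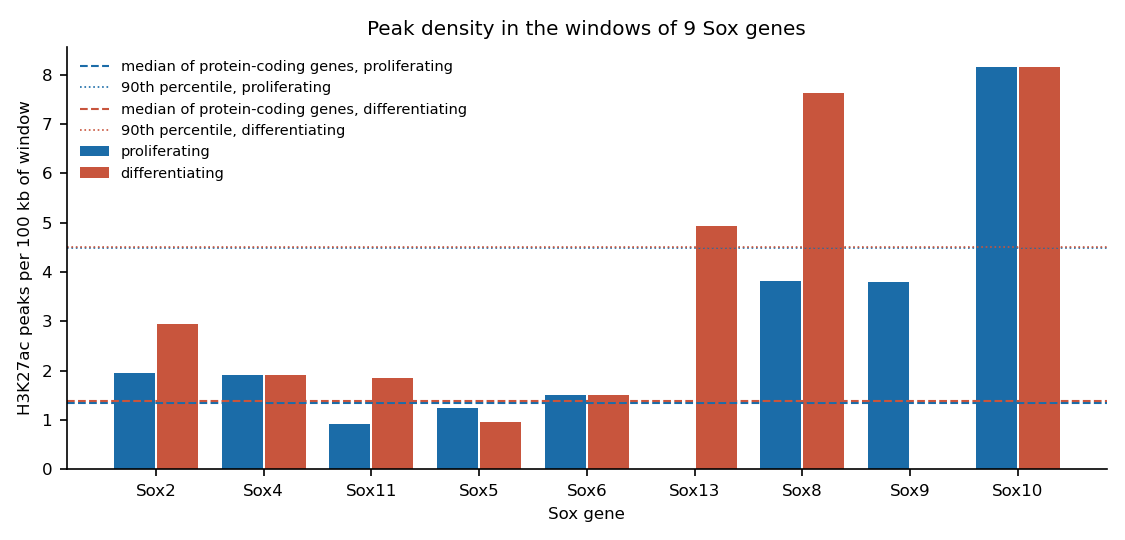
H3K27ac peaks per 100 kb of window (gene body and 50 kb on both sides) for the 9 Sox genes, proliferating in blue and differentiating in red; dashed lines are the medians over 21951 protein-coding genes (1.34 and 1.38) and dotted lines the 90th percentiles. Sox10 reaches 8.16 in both states, Sox8 differs between the states, and Sox13 and Sox9 have bars in 1 state only.

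Sox10, the SoxE factor that drives myelin genes (ENSMUSG00000033006.10, chromosome 15, 79154908 to 79165240, minus strand), had 9 peaks in each list, 7 of them shared. At 8.16 peaks per 100 kb in both lists it stood above 99.4% and 99.6% of protein-coding genes, and peaks covered 13.8% and 14.2% of its window, where all the Sox windows together were covered to 2.16% and 2.52% and the genome to 0.808% and 0.863%. At least 7 shared peaks in a window no longer than that of Sox10 were found at 44 and 45 of 7959 genes (0.553% and 0.565%). Both limits were read from Sox10 itself after its count was seen. The chromosome as a whole was also rich in peaks, with 2.70 per 100 kb in each list.

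All 4 Sox10 TSSs lay under a peak in both states, 2743 bp wide in proliferating cells (−log10 q 4.78, percentile 95.1) and 3654 bp wide in differentiating cells (−log10 q 4.50, percentile 92.5), the latter wider than 99.9% of its list and the widest of the gene in each case. Its strongest peak in both lists was the region at −28.2 kb whose sequence is given, with a −log10 q of 8.05 (1872 bp, percentile 98.8) in proliferating and 11.2 (2116 bp, percentile 99.2) in differentiating cells. Further upstream, the region at −36.9 kb stood at percentiles 89.8 and 94.6 (2711 and 2613 bp) and the region at −48.1 kb at 93.3 and 98.9 (2390 and 1631 bp). Downstream, the region at 12.8 kb, which touches the 3′ end of Polr2f, a gene for a shared RNA polymerase subunit, stood at 98.3 and 97.4 (2109 and 1830 bp). By −log10 q these 5 regions, the promoter and 4 distal ones, were in the upper 10% of the differentiating list. All but that at −36.9 kb were also in the upper 10% of the proliferating list. Ranked by fold enrichment they stood lower, the promoter peak at percentiles 1.85 (proliferating) and 0.901 (differentiating). In the same order, the region at −36.9 kb stood at 7.80 and 5.75 and that at 12.8 kb at 33.4 and 27.9. The region at −48.1 kb stood at 25.9 and 78.4 and that at −28.2 kb at 62.7 and 71.4. The other shared peaks, at −10.6 kb and at the promoter of Micall1, 56.1 kb downstream, stood at 53.9 and 51.1 in proliferating and 70.8 and 80.6 in differentiating cells. The 2 unshared peaks of each list lay 19592 to 31291 bp downstream, towards 1700088E04Rik and Polr2f, at percentiles of 8.49 and 45.5 in proliferating and 2.88 and 13.3 in differentiating cells.

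**Figure D4:**
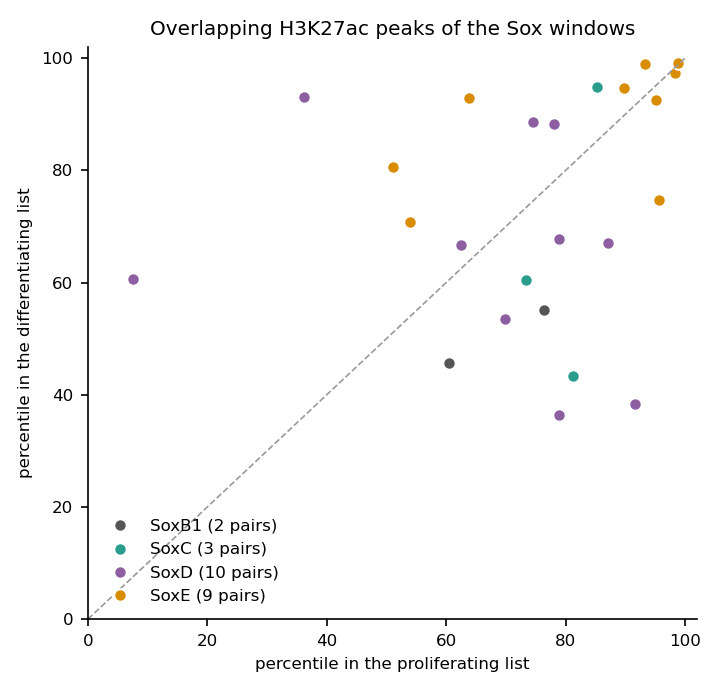
Percentile of −log10 q in the proliferating list (horizontal axis) against that in the differentiating list (vertical axis) for the 24 pairs of overlapping peaks, coloured by Sox subgroup. The dashed line marks equal percentiles; 12 of 24 pairs lie above it, and the 5 strongest Sox10 pairs sit in the upper right corner.

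Across the 24 shared pairs, 12 had the higher percentile in the differentiating list (50%, against 51.9% of the 8452 pairs of the whole lists) and 12 were wider there (50% against 56.1%). Neither state thus had the higher percentile more often. Of the 7 Sox10 pairs, 5 stood higher in the differentiating list, with a median difference of 4.85 percentile points, differentiating minus proliferating. Both Sox2 pairs stood lower there, at differences of −21.2 and −14.9 points. The differences of SoxD pairs ran from −53.2 points at the Sox6-202 promoter to 56.8 at the Sox5 intron. Overlap of at least 0.5 of both peaks was met by 16 of the 24 pairs (66.7%) against 57.3% of all pairs.

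Peaks of a window need not belong to the Sox gene. Another protein-coding gene was overlapped by 7 of the 45 peaks in proliferating cells and by 11 of the 51 in differentiating cells, and the promoter region of another gene, coding or not, held 9 and 14. Among the latter were the peaks over the TSSs of Sox8 (with 2810468N07Rik), Sox9 (with BC006965) and Sox10 (with Gm10863). The strongest proliferating Sox6 peak and its counterpart also lay in a promoter region of Sox6os. The peaks closest to the limit of 50 kb on either side of it were at Sox10. Just inside it, upstream of the gene, lay the differentiating peak 47360 bp away with a −log10 q of 9.65. Just outside it, beyond the opposite (3′) end of the gene, lay a differentiating peak at 52506 bp (−log10 q 6.07) and a proliferating peak at 52566 bp (−log10 q 2.75). At Sox8 the last peak inside was a differentiating one at 46642 bp (−log10 q 1.28), and the next peak outside any window was at Sox13, at 53198 bp (−log10 q 1.40).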

How the data were processed

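H3K27ac ChIP-seq libraries of proliferating and differentiating Oli-neu cells were used, 1 per state. According to the study's methods and the submitters' processing notes, the authors aligned reads to GRCm38/mm10 with Bowtie2 2.1.0, kept uniquely mapped reads, removed duplicates with SAMtools, called broad peaks with MACS2 2.0.10 and removed blacklisted regions with BEDTools. The methods name no input library. Each deposited list has no header and gives the position of a peak with a text cell, whose values were read in the peak caller's order: fold enrichment, which is a ratio, then −log10 p, then −log10 q. Merging of nearby signal by a broad caller sets peak widths, and a peak missing from a list is below its threshold rather than absent. The 6 ATAC-seq samples were not analysed here.

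Genes were those of GENCODE M21 (GRCm38). The members, gene lists, sequence words and comparisons were chosen with earlier results of these data known. Any shared base counted as an overlap. A peak was placed, in this order, in a protein-coding gene's promoter region, an exon, an intron or between genes. For each member the peaks nearest the 5′ TSS, strongest and widest in each list were named, and shared peaks in the upper 10%. Words and CpGs were counted in the central 300 bases. Intervals are 95% exact Clopper-Pearson intervals for shares and exact order-statistic intervals for medians. No test between the states was run. Calculations used Python 3.11.15, numpy 2.4.6, scipy 1.17.1, pysam 0.24.0 and matplotlib 3.10.9. The window, overlap and promoter functions were tested on simulated data, and the ranking was not.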

Additional observations from a re-analysis of the deposited data

How the results depend on the processing

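Of 60 recomputed values, 47 moved by less than the limits set for them and 13 moved further. With a −log10 q of at least 3, the windows held 10 proliferating and 13 differentiating peaks in place of 45 and 51. At this limit 4 members kept a proliferating peak and 6 a differentiating peak, in place of 8 in each list. A promoter peak was kept in each list by 2 members, Sox6 and Sox10, in place of 6. The shares of all protein-coding genes at this limit are not given here. By construction the median percentile then rose to 92.4 and 92.8. Of these strong peaks, 90% (n = 10) and 76.9% (n = 13) had a counterpart among all peaks of the other list, against 67.8% and 70.1% of all peaks of that strength. With the limit applied to both lists the shares were 60% and 46.2%, against 44.3% and 41.2%. Asking that 0.5 of both peaks overlap lowered the share with a counterpart to 35.6% and 31.4%, against 16.7% and 17.3% over the whole lists. A window of 10 kb held 33 differentiating peaks. Ranked by fold enrichment, the median percentile of the proliferating peaks was 42.5. Within 100 kb all 9 members had a peak in each list, Sox9 and Sox13 included. The share of all protein-coding genes within 100 kb is not given here. Within 50 kb it was already 75.2% in the proliferating and 74.2% in the differentiating list.

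No paired analysis was possible because the 2 libraries carry no shared culture number and no test was run. The study's methods give more uniquely mapped reads for the differentiating library than for the proliferating one. Without replicates or read counts per peak, a peak listed in 1 state only can be a peak just under the threshold in the other. Neither this nor a part of the read depth was tested.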

Other observations

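Of the other 11 Sox genes of the mouse, the same 7 had a peak within 50 kb in each list. Of all protein-coding genes, 75.2% (proliferating) and 74.2% (differentiating) had such a peak. A promoter peak was found for 2 of the 11, Sox12 (SoxC) and Sox21 (SoxB2), each in both lists, against 31.3% and 35.3% of genes. Sox12, which belongs with Sox4 and Sox11, had 8 proliferating and 6 differentiating peaks in its window, 5 of them shared in each list, the strongest at percentiles 96.0 and 85.4. Sox21 had 2 peaks in each list, all shared, the strongest at percentiles 83.6 and 96.6. In all, the 11 genes had 24 proliferating peaks, 13 of them with a counterpart, and 19 differentiating peaks, 13 of them with a counterpart. Over the whole lists 29.2% of proliferating and 30.1% of differentiating peaks had one. A share above that of the whole list was thus not particular to the 9 members.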
